A study of Homo sapiens with 12 samples.

Results

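CD274 and PDCD1LG2, the neighbouring human genes on chromosome 9 that encode the checkpoint ligands PD-L1 and PD-L2, were followed by name through RNA-seq of U251 cells, an established glioblastoma line. They are 2 of 27685 genes in the deposited table, and both were among the 15769 genes with enough counts to be tested. The 12 libraries formed 4 groups of 3. shINCA1 cells, which stably expressed a short hairpin RNA against the long noncoding RNA that the study calls INCA1, were either stimulated with interferon gamma (IFNγ) for 24 h or left untreated. shCTRL cells, which stably expressed a control hairpin, were likewise either stimulated with IFNγ for 24 h or left untreated. The series asks whether this noncoding RNA takes part in interferon signalling of tumour cells.

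PD-L1 and PD-L2 are B7 family proteins that bind the receptor PD-1 on T cells and restrain their activation. PD-L1 is made by many cell types, tumour cells included, and PD-L2 mainly by dendritic cells and macrophages. IFNγ binds the receptor chains IFNGR1 and IFNGR2, the kinases JAK1 and JAK2 activate transcription factors of the STAT family, and these induce IRF1, which acts at the CD274 promoter.

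Sequences are shown for CD274 and for IRF1, whose promoters were searched for letters that STAT and IRF family factors recognise. They come from RefSeq (GRCh38.p14), which was matched by symbol for 1 of the 2 ligand genes. No promoter was matched for PDCD1LG2, so that gene was not searched. The CD274 window holds the 250 bases before the annotated start (chr9:5450292-5450541, plus strand). For IRF1 the same 250 bases were searched, and the 100 bases shown were cut to include its match (chr5:132490814-132490913, minus strand). Capitals mark matches, on either strand, to TTCNNNGAA (the STAT-type GAS motif) or to GAAA followed by 2 free bases and GAAA (the core recognised by IRF proteins).
CD274: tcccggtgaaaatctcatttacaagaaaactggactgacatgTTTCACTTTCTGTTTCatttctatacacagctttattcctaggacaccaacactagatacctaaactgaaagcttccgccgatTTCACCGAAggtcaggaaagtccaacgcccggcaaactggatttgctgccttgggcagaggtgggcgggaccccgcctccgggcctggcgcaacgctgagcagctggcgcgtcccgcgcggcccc
IRF1: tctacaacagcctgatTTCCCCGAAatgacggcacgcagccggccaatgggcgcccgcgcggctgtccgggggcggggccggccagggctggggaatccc
In CD274, 2 overlapping IRF-type matches lie at positions -208 to -199 and -202 to -193 from the start, and 1 GAS match lies at -125 to -117. The only match in IRF1 was a GAS match, at -124 to -116, and no IRF-type match was found there. Of 35116 RefSeq promoter windows of the same length, 6.57% hold a GAS match and 3.02% an IRF-type match, and 0.225% hold at least 2 IRF-type matches. A match describes letters in the reference sequence and shows no binding.

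Libraries held 46525032 to 66242859 estimated counts, and within a group log expression correlated at 0.983 to 0.987 between libraries. Whether the 3 samples of each group were separate cultures is not stated, so the p-values cover only the spread between samples, which may be technical. IFNγ changed 9.08% of tested genes in shINCA1 and 17.2% in shCTRL cells, in either direction, and the lines differed in 56.9% untreated and in 58.9% with IFNγ. The targeted RNA was not analysed here. RefSeq lists a noncoding RNA, INCR1, on chromosome 9, which in GENCODE overlaps CD274 and PDCD1LG2 on the opposite strand, whereas the gene that the table lists as INCA1 lies on chromosome 17, codes for a protein and had between 5 and 19 counts in any library. No check of the hairpins by the level of their target was made. The labels name 1 line for each hairpin, so hairpin and line cannot be told apart. Whether counting used strand is not known, so the counts of both ligand genes may include reads of the overlapping RNA.

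The sample was checked against markers of other cells, because immune cells also make both ligands. Of 10 immune cell markers, ITGAX, CD3E, TYROBP and AIF1 were at 0 in every library, and the leukocyte gene PTPRC had 3 counts in 1 untreated shCTRL library and 0 in the others. The 10 markers summed to 11.4 to 13.1 CPM (counts scaled to library size, with TMM factors between libraries) in IFNγ-treated and 11.81 to 12.001 CPM in untreated shINCA1 cells, and to 13.8 to 15.3 CPM in IFNγ-treated and 12.9 to 14.6 CPM in untreated shCTRL cells. Most of that sum was CD68, a lysosomal gene of macrophages and other cells, at group means of 9.46 to 10.3 CPM in shINCA1 and 12.6 to 13.7 CPM in shCTRL cells. The macrophage receptor gene CSF1R averaged 1.36 to 1.90 CPM in shINCA1 and 0.593 to 0.675 CPM in shCTRL cells, and CD14 0.481 to 0.526 CPM in shINCA1 and 0.347 to 0.578 CPM in shCTRL cells. The 7 glial and glioma markers summed to 2989 to 3046 CPM in IFNγ-treated and 3004 to 3046 CPM in untreated shINCA1 cells, and to 3454 to 3563 CPM and 3566 to 3681 CPM in IFNγ-treated and untreated shCTRL cells. VIM and CD44 made up most of this sum. Between the lines 5 of the 7 were lower and 2 higher in shINCA1 cells in each condition. Of all genes, 29.5% were lower and 27.4% higher untreated, and 30.2% and 28.7% with IFNγ. The progenitor gene NES averaged 28.9 CPM with IFNγ and 33.5 CPM untreated in shINCA1 cells, against 115.7 and 136.7 CPM in shCTRL cells. CD44 averaged 822 and 883 CPM in shINCA1 cells, against 568 and 656 CPM in shCTRL cells. The astrocyte gene GFAP averaged between 0.348 CPM in untreated shINCA1 and 1.59 CPM in untreated shCTRL cells. The 3 endothelial markers summed to 14.2 to 16.7 CPM in IFNγ-treated and 7.91 to 9.64 CPM in untreated shINCA1 cells, and to 8.61 to 9.69 CPM and 6.22 to 6.96 CPM in IFNγ-treated and untreated shCTRL cells. PECAM1 was at 0 in all libraries but 1 of untreated shINCA1, and most of the endothelial sum was KDR. CDH5 had 0 to 38 counts with IFNγ and 39 to 63 untreated in shINCA1 libraries, against 0 and 0 to 6 in shCTRL libraries. The 2 endothelial markers tested were higher in shINCA1 cells in each condition, where 27.4% of all genes were higher untreated and 28.7% with IFNγ. The part of these marker differences in the results was not tested.

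CD274 RNA was higher with IFNγ in both lines and was lower in shINCA1 than in shCTRL cells with and without the cytokine. In bulk RNA, fewer cells that make a transcript and less of it per cell cannot be told apart. IFNγ-treated shINCA1 libraries had 37.0, 42.9 and 40.2 CPM, and untreated shINCA1 libraries had 1.62, 2.28 and 2.60 CPM. IFNγ-treated shCTRL libraries had 96.9, 91.6 and 97.0 CPM, and untreated shCTRL libraries had 6.78, 7.04 and 6.24 CPM. Every IFNγ library lay above every untreated library, and in each condition all shINCA1 libraries lay below all shCTRL libraries. In raw counts, untreated shINCA1 libraries held 93 to 175 counts of CD274, the smallest numbers of any group.

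PDCD1LG2 RNA followed the same order at a lower level. It had 9.45, 11.9 and 9.76 CPM in IFNγ-treated shINCA1 libraries and 0.906, 0.599 and 0.519 CPM in untreated shINCA1 libraries. In shCTRL cells it had 19.6, 19.5 and 20.9 CPM with IFNγ and 2.02, 1.36 and 2.03 CPM without. Here too the 4 groups did not overlap. Untreated shINCA1 libraries held only 35 to 52 counts of PDCD1LG2, and untreated shCTRL libraries 64 to 122.

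**Figure D1:**
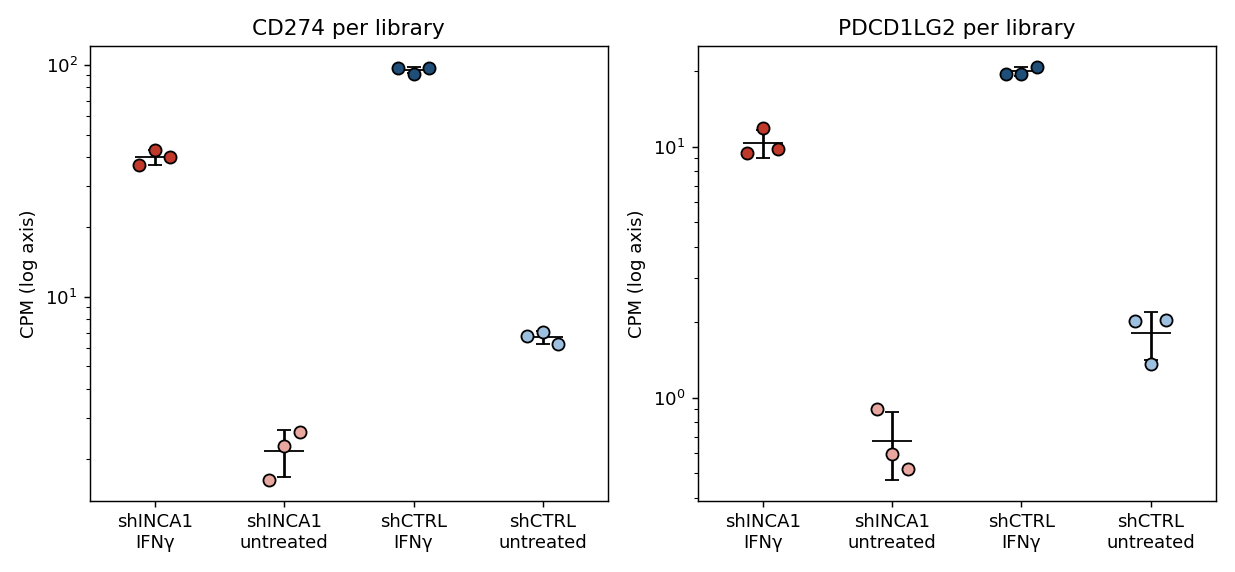
CPM (log axis) of CD274 and PDCD1LG2 in each of 12 libraries, with the mean and SD of each group of 3. For both genes the order of the groups is IFNγ-treated shCTRL, IFNγ-treated shINCA1, untreated shCTRL and untreated shINCA1, from high to low, with no overlap between groups.

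The response of each line to IFNγ was compared first. In shINCA1 cells CD274 averaged 40.1 ± 2.95 CPM with IFNγ, against 2.16 ± 0.50 CPM untreated (SD, n = 3 each). The fitted log2 change was 4.20 ± 0.13 (SE), or 18.4-fold with a 95% interval of 15.2 to 22.2 (edgeR quasi-likelihood test, adjusted p = 3.14e-10). PDCD1LG2 averaged 10.4 ± 1.33 CPM with IFNγ, against 0.674 ± 0.20 CPM untreated, a log2 change of 3.95 ± 0.19 or 15.4-fold (interval 11.5 to 20.7, adjusted p = 3.98e-08). Both genes thus rose in this line, where 6.13% of genes tested were raised and libraries did not overlap for 24.9%. By size of log2 change CD274 ranked 95 and PDCD1LG2 114 from the top of 15769 genes.

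Both genes also rose in shCTRL cells. CD274 averaged 95.2 ± 3.12 CPM with IFNγ, against 6.69 ± 0.41 CPM untreated, a log2 change of 3.83 ± 0.12 or 14.2-fold (interval 11.9 to 17.0, adjusted p = 2.94e-10). PDCD1LG2 averaged 19.99 ± 0.76 CPM with IFNγ, against 1.80 ± 0.39 CPM untreated, a log2 change of 3.46 ± 0.17 or 10.99-fold (interval 8.44 to 14.3, adjusted p = 3.36e-08). In this line 9.72% of genes were raised, and libraries did not overlap for 33.4%. The ligand genes ranked 128 and 147 from the top.

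The next question was whether the lines differed at the same treatment. Without IFNγ, CD274 was lower in shINCA1 than in shCTRL cells by 3.07-fold (interval 2.53 to 3.72), a log2 difference of -1.62 ± 0.13 (adjusted p = 4.35e-07). PDCD1LG2 was 2.71-fold lower (interval 1.97 to 3.72), a log2 difference of -1.44 ± 0.21 (adjusted p = 8.78e-05). The lines differed widely, however: 29.5% of all genes tested were lowered, and libraries did not overlap for 62.8%. Being called between the lines is therefore common in these data, and it is the size of the difference that sets the ligand genes toward the low end, CD274 at rank 688 and PDCD1LG2 at rank 778 from the bottom of 15769 genes.

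With IFNγ, CD274 was 2.38-fold lower in shINCA1 cells (interval 2.03 to 2.78), a log2 difference of -1.25 ± 0.10 (adjusted p = 6.23e-07). PDCD1LG2 was 1.93-fold lower (interval 1.53 to 2.43), a log2 difference of -0.95 ± 0.15 (adjusted p = 0.00018). Here 30.2% of genes were lowered, libraries did not overlap for 66.5%, and the ligand genes ranked 951 and 1304 from the bottom. In a test against a minimum fold of 2 (glmTreat), the CD274 difference without IFNγ passed, that with IFNγ had an adjusted p of 0.0502, and PDCD1LG2 passed in neither condition.

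The responses of the lines to IFNγ were then compared with each other on the log scale. The log2 response of CD274 was larger in shINCA1 than in shCTRL by 0.37 ± 0.16 (interval 0.01 to 0.72), with an unadjusted p of 0.0431 and an adjusted p of 0.407 by edgeR's quasi-likelihood test. That of PDCD1LG2 was larger by 0.49 ± 0.26 (interval -0.07 to 1.06, adjusted p = 0.528). Neither passed the threshold, which 1.71% of genes did (0.615% with a larger and 1.1% with a smaller response in shINCA1), and the intervals allow a response in shINCA1 cells up to 1.65-fold that of shCTRL cells for CD274 and 2.08-fold for PDCD1LG2. On the linear scale the gains were smaller in shINCA1 cells. CD274 gained 37.9 ± 1.73 CPM (SE) with IFNγ in shINCA1 cells and 88.5 ± 1.82 CPM in shCTRL cells, so the gain in shINCA1 was 42.8% of that in shCTRL. PDCD1LG2 gained 9.69 ± 0.78 CPM in shINCA1 and 18.2 ± 0.49 CPM in shCTRL cells, or 53.3%. The gains are described and were not tested.

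**Figure D2:**
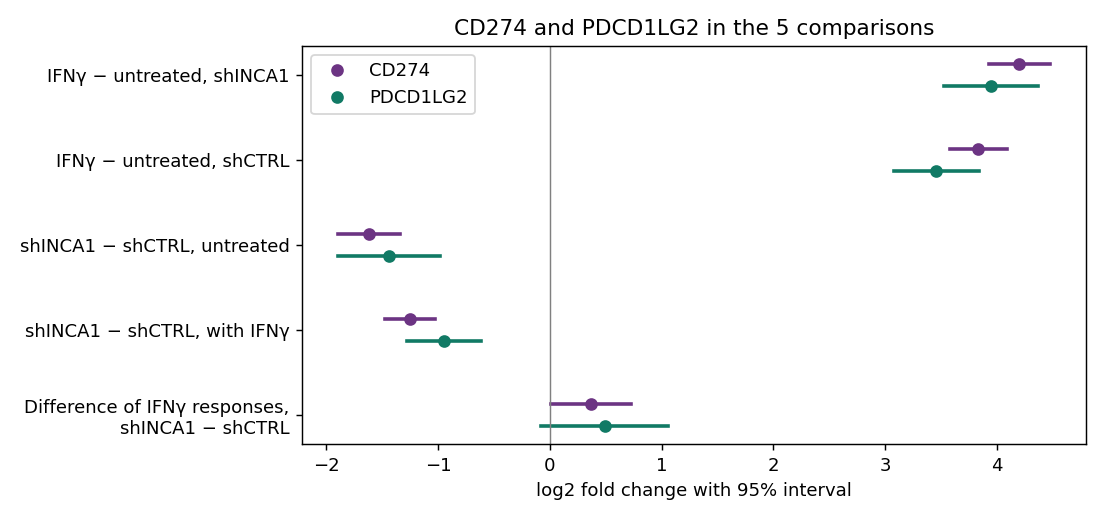
Log2 fold changes of CD274 and PDCD1LG2 in the 5 comparisons, as points with 95% intervals. Both genes lie between 3.46 and 4.20 for the IFNγ responses and between -1.62 and -0.95 for the differences of shINCA1 from shCTRL. The differences of responses lie at 0.37 and 0.49.

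The balance between the ligand genes was read as the log2 ratio of CD274 to PDCD1LG2 counts within each library, which does not depend on scaling between libraries. With IFNγ the ratios were 1.97, 1.85 and 2.04 in shINCA1 and 2.31, 2.23 and 2.22 in shCTRL cells, so that every shINCA1 library lay below every shCTRL library. The difference of the means was -0.30 ± 0.06 (SE), with p = 0.10 in an exact two-sided permutation test, the smallest that 3 libraries against 3 can give, and 0.40 after adjustment over 4 such tests. Without IFNγ the ratios spread from 0.83 to 2.31 in shINCA1 and from 1.61 to 2.37 in shCTRL cells and overlapped (difference -0.22 ± 0.50, exact permutation p = 0.80). The ratio with IFNγ was higher than without by 0.27 ± 0.44 in shINCA1 (exact permutation p = 0.80) and by 0.34 ± 0.23 in shCTRL cells (exact permutation p = 0.40). Without untreated shINCA1 library 1 the change in shINCA1 turned to -0.16 and the untreated difference between lines to 0.20, and without untreated shCTRL library 2 that difference was 0.01.

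**Figure D3:**
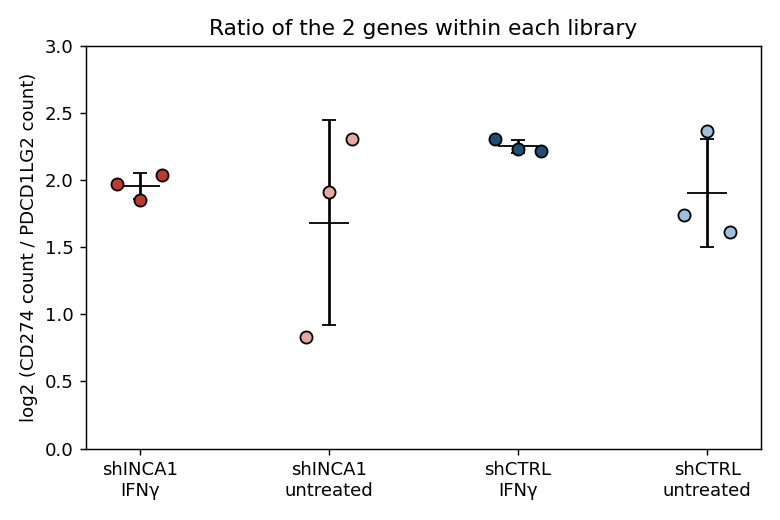
Log2 ratio of CD274 to PDCD1LG2 counts in each of 12 libraries, with the mean and SD of each group of 3. With IFNγ the shINCA1 libraries lie at 1.85 to 2.04 and the shCTRL libraries at 2.22 to 2.31, while the untreated libraries of both lines spread widely.

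Per length, CD274 was the more abundant of the pair in every group. CPM was divided by the length of the main transcript in GENCODE (3634 bases for CD274 and 2432 for PDCD1LG2). The geometric mean ratio per length was 2.59 in IFNγ-treated and 2.15 in untreated shINCA1 cells, and 3.19 in IFNγ-treated and 2.51 in untreated shCTRL cells. The lengths come from a later annotation than the counts, so these ratios are approximate.

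Among other B7 family ligands, the level per length places PD-L1 in context. CD276, which encodes B7-H3, was at 36.2 ± 1.11 CPM per kilobase in IFNγ-treated and 35.1 ± 1.32 in untreated shINCA1 cells, and at 27.4 ± 0.58 in IFNγ-treated and 24.6 ± 0.85 in untreated shCTRL cells. CD274 was at 11.02 ± 0.81 and 0.596 ± 0.14 CPM per kilobase in IFNγ-treated and untreated shINCA1 cells, and at 26.2 ± 0.86 and 1.84 ± 0.11 in IFNγ-treated and untreated shCTRL cells. CD276 thus had the higher mean in all 4 groups, by the least in IFNγ-treated shCTRL cells. PDCD1LG2 was at 4.26 ± 0.55 and 0.277 ± 0.08 CPM per kilobase in IFNγ-treated and untreated shINCA1 cells, and at 8.22 ± 0.31 and 0.742 ± 0.16 in IFNγ-treated and untreated shCTRL cells.

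Of the 8 other B7 family genes listed, 4 could be tested. With IFNγ, 1 was raised in shINCA1 and 2 in shCTRL cells, against 6.13% and 9.72% of all genes. ICOSLG, which encodes the ligand of the T cell receptor ICOS, rose by 0.76 ± 0.09 on the log2 scale in shINCA1 (adjusted p = 0.000161) and by 1.03 ± 0.09 in shCTRL cells (adjusted p = 7.3e-06). Between the lines, 3 of the 4 were higher in shINCA1 cells without IFNγ and 2 with IFNγ, and none lower, against 27.4% and 28.7% of all genes raised. CD276 differed by 0.51 ± 0.04 without and 0.40 ± 0.04 with IFNγ. NCR3LG1, which encodes the natural killer cell ligand B7-H6, differed by 1.53 ± 0.06 and 1.55 ± 0.06. CD80, CD86, VSIR and HHLA2 were at or near 0, with group means of at most 0.0499 CPM, and were not tested.

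The receptor gene was barely detected in these tumour cells. PDCD1, which encodes PD-1, had 3 counts in 1 IFNγ-treated shINCA1 library and 0 in the other 11 libraries. RGMB, a partner of PD-L2, was lower in shINCA1 cells by 0.26 ± 0.04 on the log2 scale without IFNγ (adjusted p = 0.000116) and by 0.20 ± 0.04 with it (adjusted p = 0.000727).

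Genes of the IFNγ pathway, inhibitors of the signal included, were listed next. Of 12 genes from the receptor to IRF1 and its regulators, 7 rose in shINCA1 and 9 in shCTRL cells with IFNγ, and 0 fell, against 6.13% and 9.72% of all genes raised. The median log2 change of the list was 1.13 in shINCA1 and 1.44 in shCTRL cells, against 0.00 and -0.01 over all genes. IRF1 rose by 5.75 ± 0.06 in shINCA1 and 5.96 ± 0.06 in shCTRL cells. IRF9, of the same family, rose by 3.10 ± 0.11 and 2.57 ± 0.10. SOCS1, a feedback inhibitor of JAK kinases, rose by 3.12 ± 0.21 and 5.17 ± 0.22, and JAK2 by 0.90 ± 0.08 and 1.94 ± 0.08.

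Between the lines, 8 of these 12 genes were lower in shINCA1 cells without IFNγ and 11 with IFNγ, and 0 were higher, against 29.5% and 30.2% of all genes lowered. The list's median log2 difference was -0.40 without and -0.66 with IFNγ, against -0.01 and 0.00 over all genes. JAK1 was lower by 0.60 ± 0.03 without and 0.67 ± 0.04 with IFNγ on the log2 scale, and IFNGR1 by 0.80 ± 0.05 and 0.65 ± 0.05. IRF9 was lower by 1.15 ± 0.11 and 0.63 ± 0.10, and IRF1 by 0.36 ± 0.05 and 0.58 ± 0.05. IFNGR2 was the member that did not pass with IFNγ (-0.11 ± 0.05, adjusted p = 0.0762).

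**Figure D4:**
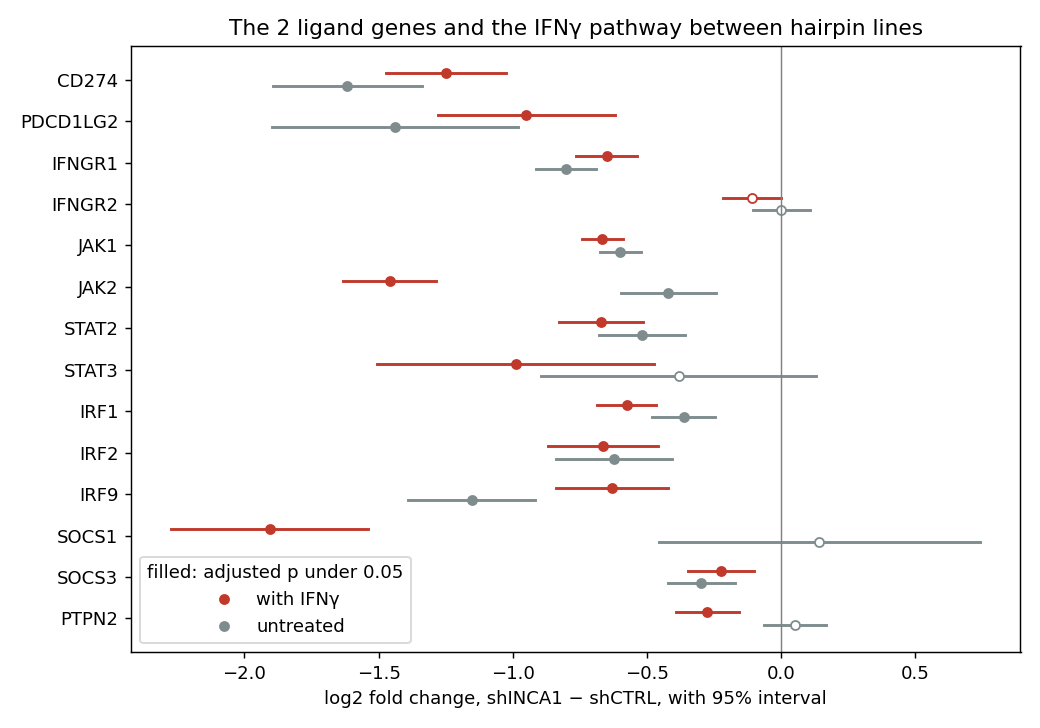
Log2 difference of shINCA1 from shCTRL cells, with and without IFNγ, for CD274, PDCD1LG2 and 12 IFNγ pathway genes, as points with 95% intervals. Filled points passed an adjusted p of 0.05: 11 of the 12 pathway genes with IFNγ and 8 without, all below 0.

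JAK2 lies in the same chromosome 9 neighbourhood as the ligand genes. It had 21.2 ± 1.24 CPM with IFNγ and 11.4 ± 0.41 CPM untreated in shINCA1 cells, and 58.3 ± 1.45 CPM with IFNγ and 15.2 ± 1.98 CPM untreated in shCTRL cells. Its log2 response was smaller in shINCA1 than in shCTRL cells and the difference passed the test (-1.04 ± 0.11, adjusted p = 0.000527). Of 8 listed neighbours, 5 were tested, and 3 were higher and 1 lower in shINCA1 cells in each condition, the lower being JAK2 itself. Of all genes, 27.4% were higher and 29.5% lower untreated, and 28.7% and 30.2% with IFNγ. RLN2, a listed neighbour, averaged 1.00 CPM with IFNγ and 0.961 CPM untreated in shINCA1 cells. In shCTRL cells it averaged 0.214 and 0.186 CPM, at only 7 to 19 and 5 to 13 counts.

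Neither flanking gene of the ligand pair was called lower in shINCA1 cells. PLGRKT, which encodes a plasminogen receptor and lies next to CD274, was at 21.8 ± 0.55 CPM with IFNγ and 20.8 ± 0.34 CPM untreated in shINCA1 cells. In shCTRL cells it was at 22.6 ± 1.54 CPM with IFNγ and 19.6 ± 0.69 CPM untreated. Its log2 difference between the lines was 0.09 ± 0.05 without IFNγ (adjusted p = 0.177) and -0.05 ± 0.05 with it (adjusted p = 0.443). RIC1, a trafficking factor gene next to PDCD1LG2, differed by 0.16 ± 0.05 without IFNγ and 0.17 ± 0.05 with it. The first call was lost without untreated shCTRL library 1 or 3 (adjusted p up to 0.0745) and the second without IFNγ-treated shINCA1 library 3 (adjusted p = 0.0532).

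Transcription factors reported to act on CD274 outside the interferon pathway were listed too. Of these 12, 11 were tested. With IFNγ, 5 rose in shINCA1 and 2 in shCTRL cells, and 0 fell, against 6.13% and 9.72% of all genes raised and 2.95% and 7.51% lowered. JUN, an AP-1 subunit, rose by 0.46 ± 0.06 in shINCA1 and 0.39 ± 0.06 in shCTRL cells. NFKB1, a subunit of NF-κB, rose by 0.26 ± 0.05 and 0.29 ± 0.05. Between the lines, 4 were higher and 1 lower in shINCA1 cells without IFNγ, and 5 higher and 1 lower with it. The shares called, 45.5% untreated and 54.5% with IFNγ, were below the 56.9% and 58.9% of all genes, so the count shows nothing particular to these genes. The hypoxia factor genes HIF1A and EPAS1 were higher by 0.47 ± 0.03 and 0.57 ± 0.03 without IFNγ. RELA went the other way. It averaged 65.5 CPM untreated and 71.2 CPM with IFNγ in shINCA1 cells, against 75.8 and 78.5 CPM in shCTRL cells. The part of these genes in the CD274 level was not tested.

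Genes whose products act on the PD-L1 protein made up another list. Of these 12, 11 were tested, and 7 were lower and 3 higher in shINCA1 cells in each condition. Of all genes, 29.5% were lower and 27.4% higher untreated, and 30.2% and 28.7% with IFNγ. CMTM6, which keeps PD-L1 at the cell surface, was lower by 0.20 ± 0.04 on the log2 scale without and 0.23 ± 0.04 with IFNγ. GSK3B, a kinase that marks PD-L1 for degradation, was lower by 0.43 ± 0.05 and 0.40 ± 0.05. STUB1, a ubiquitin ligase that acts on PD-L1, was lower by 0.27 ± 0.05 and 0.28 ± 0.05. Members also went the other way. HIP1R averaged 33.4 CPM with IFNγ and 33.9 CPM untreated in shINCA1 cells, against 23.4 and 27.6 CPM in shCTRL cells. CMTM4 averaged 93.0 and 103.0 CPM in shINCA1 cells, against 79.3 and 92.7 CPM in shCTRL cells. With IFNγ, 0 of the 11 rose and 2 fell in shINCA1 cells, and 1 rose and 3 fell in shCTRL cells, against 6.13% and 9.72% of all genes raised and 2.95% and 7.51% lowered. The protein itself was not measured.

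Genes with the pattern most like each ligand gene were found by the root mean square distance between log2 CPM profiles over the 12 libraries, each gene centred on its own mean, among genes with an average of at least 1 CPM. The nearest to CD274 were PARP9 at a distance of 0.31, BST2 at 0.32, PARP14 at 0.34, CASP1 at 0.38 and IFIT2 at 0.39. The nearest to PDCD1LG2 were CSF1 at 0.23, DTX3L at 0.27, PARP14 at 0.29, PARP9 at 0.33 and IFIT2 at 0.37. CD274 and PDCD1LG2 were 0.41 apart, which placed PDCD1LG2 at rank 6 for CD274 and CD274 at rank 10 for PDCD1LG2. The median distance of the 12974 genes was 2.15 to CD274 and 1.96 to PDCD1LG2.

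These nearest genes were chosen for their likeness to the ligand genes over the same libraries. A rise with IFNγ and a lower level in shINCA1 cells are therefore built into the choice, and the values only describe it. BST2, which encodes the antiviral membrane protein tetherin, was lower in shINCA1 cells by 1.52 ± 0.24 without and 1.81 ± 0.16 with IFNγ on the log2 scale. CASP1, the inflammatory caspase gene, was lower by 2.13 ± 0.33 without and 0.99 ± 0.23 with IFNγ. CSF1, a macrophage growth factor gene, was lower by 1.09 ± 0.08 and 0.69 ± 0.07. The profiles are a description over libraries that share 4 groups.

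**Figure D5:**
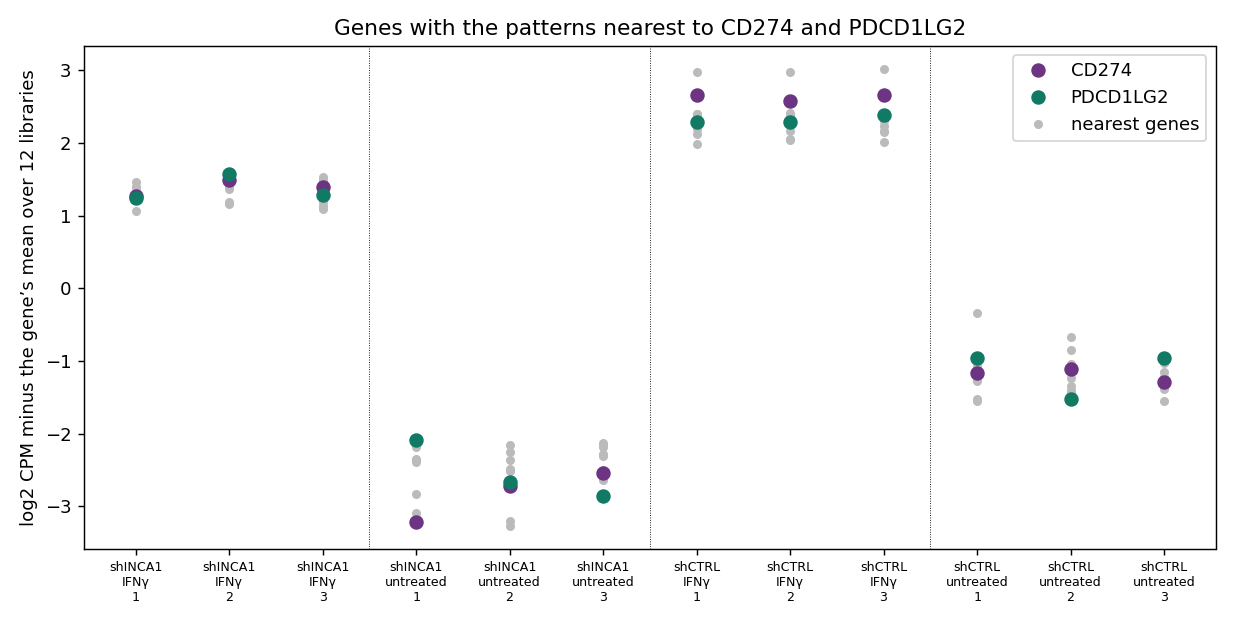
Log2 CPM of CD274, PDCD1LG2 and their nearest genes in each of 12 libraries, each gene centred on its own mean. All are above their mean in the IFNγ-treated and below it in the untreated libraries of both lines. In untreated shINCA1 libraries CD274 lies at -3.21, -2.73 and -2.54 and PDCD1LG2 at -2.09, -2.66 and -2.86.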

How the data were processed

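RNA of 12 U251 samples was sequenced after library preparation with a stranded mRNA kit, per the labels' protocols. The deposited table holds expected counts: estimated counts per gene symbol, written as whole numbers and not normalized. The submitters' processing notes name hg19 and the programs FastQC, Trimmomatic, HISAT2 and StringTie. How the counts were made from these, with which annotation and strand setting, is not stated. Among low values 3 occurs 5790 times and 6 occurs 4120 times, against 2186 for 2 and 1317 for 4, so a fragment may often be worth about 3 units.

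Samples were grouped by title. The main test was the quasi-likelihood test of edgeR 4.0.16 in R 4.3.3 (filterByExpr, TMM, all samples in 1 fit with 1 coefficient per group, two-sided, Benjamini-Hochberg adjustment over 15769 genes, threshold 0.05). A standard error is the log2 fold change over the square root of F. Ratios added 0.5 counts to both genes. The text names the ligand genes, at most 5 genes per list and comparison in order of p, and the 5 nearest patterns of each ligand gene. Outside this rule IFNGR2, IRF9 between IFNγ-treated lines, the responses of JAK2 and SOCS1, and the single markers were named after their values were seen. The levels of SOCS1, RLN2, HIP1R, CMTM4 and RELA were also added after their values were seen. The ligand genes and lists were chosen with earlier results of these data known, so list counts are descriptions. Some genes are not reported here and were left out of the lists. Alternatives included DESeq2 1.42.0 and limma 3.58.1 (voom), other scalings and filters, a minimum fold of 2, and leaving out each library. The code was tested on simulated data.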

Additional observations from a re-analysis of the deposited data

Results flagged for a closer look

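The responses of shINCA1 and shCTRL cells to IFNγ differed, by the test of the difference itself (edgeR's quasi-likelihood test), for 5 of the genes named beside CD274 and PDCD1LG2. The log2 response in shINCA1 minus that in shCTRL was -1.04 for JAK2 (adjusted p = 0.000527). It was -2.05 for SOCS1 (adjusted p = 0.00672), whose fold changes are limited by low untreated counts, 10 to 23 in shINCA1 and 11 to 19 in shCTRL libraries. The difference was 0.87 for MYC (adjusted p = 0.00856), whose own response was 0.69 ± 0.10 in shINCA1 and -0.18 ± 0.10 in shCTRL cells. It was 1.02 for PARP9 (adjusted p = 0.00027) and 0.79 for DTX3L (adjusted p = 3.55e-05). Such a difference passed the threshold in 1.71% of all genes.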

How the results depend on the processing

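The IFNγ rise of CD274 and PDCD1LG2 and their lower level in shINCA1 cells kept their direction under all 22 alternatives each. Against a minimum fold of 2, PDCD1LG2 without IFNγ (log2 -1.44, adjusted p = 0.101), CD274 with IFNγ (-1.25, adjusted p = 0.0502) and PDCD1LG2 with IFNγ (-0.95, adjusted p = 1) lost their calls, by construction of a stricter test. The differences of responses passed in none of 21 alternatives (CD274 0.21 to 0.54, lowest adjusted p = 0.173; PDCD1LG2 0.34 to 0.76, lowest 0.203). Over the alternatives the CD274 difference between lines ranged over -1.78 to -1.46 without and -1.30 to -1.19 with IFNγ.

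The numbers of genes called were 1432 (IFNγ, shINCA1), 2716 (IFNγ, shCTRL), 8970 (lines, untreated), 9291 (lines, IFNγ) and 270 (difference of responses), and became 154, 233, 1112, 1156 and 6 against a minimum fold of 2. At an adjusted p of 0.01 they were 869, 1703 and 113 for the responses and their difference. The last was 509 with DESeq2 and 174 to 235 without 1 library, at its lowest without IFNγ-treated shCTRL library 2 (179) or untreated shINCA1 library 3 (174); the cause was not tested. Members of the 6 lists called numbered 15, 18, 30, 33 and 3, where 9.08%, 17.2%, 56.9%, 58.9% and 1.71% of all genes were called. The lists held 1, 4, 12, 11, 11 and 5 tested members, JAK2 being in both the pathway and the neighbour list. The members called became 6, 7, 2, 4 and 0 at a minimum fold of 2, and 6 for the difference with DESeq2. With upper-quartile factors the split of raised and lowered genes was 815 and 733 in shINCA1 and 1201 and 1970 in shCTRL cells, against 967 and 465, and 1532 and 1184, with TMM.

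Without 1 library, the difference in the mean log2 ratio of CD274 to PDCD1LG2 ranged from -0.16 to 0.58 for IFNγ-treated minus untreated shINCA1 cells. For shINCA1 minus shCTRL cells, untreated, that difference ranged from -0.53 to 0.20. The PLGRKT difference between lines with IFNγ ranged from -0.083 to 0.011 without 1 library, turning positive without IFNγ-treated shCTRL library 1.

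Same-numbered libraries did not deviate together (r from -0.04 to 0.05, own number best in 3 of 12 pairs), so the main test did not pair samples by number. Whether same-numbered samples were handled together is not known. With the replicate block CD274 differed between lines by -1.62 untreated and -1.25 with IFNγ, and the counts of genes called, in the same order, were 1375, 2634, 8899, 9186 and 237.

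Untreated shINCA1 libraries hold 35 to 52 counts of PDCD1LG2, which limits its fold changes there. The same holds for BST2, at 22 to 55 counts, and for CASP1, at 9 to 25 counts in those libraries.
Settings for normalized values were not run, the deposited values being counts.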
